A study of Mus musculus with 24 samples.

Results

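The fibrillar collagen chains Col1a1, Col1a2, Col3a1, Col5a1, Col5a2, Col2a1 and Col11a2 were taken by gene symbol from the liver arrays of mice on 3 high-fat diets. All 7 chains were measured, out of 18820 genes with a probe set that lists no other gene. Each chain is given by its single-gene probe set of highest mean, and Col5a1 was the only one with more than 1. The samples were livers of 24 male mice of C57BL/6J background, 4 to 6 months old, that ate a diet with 45% of energy as fat for 7 weeks. The fat came from partially hydrogenated soy oil in the Trans group, from canola and palm olein oil in the Cis group and from cocoa butter in the Saturated group, with 8 mice in each. All groups thus shared the high fat content, and the comparisons are between kinds of fat. Each liver was hybridized to its own Affymetrix Mouse Gene 1.1 ST array, and values are log2 signals normalized by the robust multi-array average (RMA).

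Fibrillar collagens are long chains that wind around each other into a rope-like helix inside the endoplasmic reticulum. They are secreted as procollagen, trimmed at both ends outside the cell and packed into banded fibrils that lysyl oxidases crosslink. Types I and III make up most of the fibrils of connective tissue and of scarred liver, where activated hepatic stellate cells and portal fibroblasts are their main source. Type V sits inside type I fibrils and governs how they start and how thick they grow, whereas types II and XI belong to cartilage. Col1a1 (chromosome 11) and Col1a2 (chromosome 6) encode the chains of type I collagen and Col3a1 (chromosome 1) the only chain of type III. Col5a1 (chromosome 2) and Col5a2 (chromosome 1) encode chains of type V, Col2a1 (chromosome 15) that of type II, and Col11a2 (chromosome 17) a chain of type XI. Col3a1 and Col5a2 are direct neighbours in the RefSeq annotation.

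The promoters of Col1a2 and Col3a1 are shown, since these chains varied together across livers and a promoter was given for both. RefSeq (GRCm38.p6) gave a promoter for 4 of the 7 chains, without Col1a1, Col5a2 and Col2a1, and the 250 bases before the start site were searched. Capitals mark the CCAAT box (CCAAT), the GC box (GGGCGG), the TATA box (TATAAA) and the Smad box (CAGAC), each on both strands. No marked motif overlaps another.
Col1a2, chr6:4505368-4505617, plus strand: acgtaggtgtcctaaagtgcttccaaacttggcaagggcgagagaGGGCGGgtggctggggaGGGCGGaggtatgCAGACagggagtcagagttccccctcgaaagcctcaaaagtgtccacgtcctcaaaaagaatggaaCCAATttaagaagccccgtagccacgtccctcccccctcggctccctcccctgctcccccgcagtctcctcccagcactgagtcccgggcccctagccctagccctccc
Col3a1, chr1:45311288-45311537, plus strand: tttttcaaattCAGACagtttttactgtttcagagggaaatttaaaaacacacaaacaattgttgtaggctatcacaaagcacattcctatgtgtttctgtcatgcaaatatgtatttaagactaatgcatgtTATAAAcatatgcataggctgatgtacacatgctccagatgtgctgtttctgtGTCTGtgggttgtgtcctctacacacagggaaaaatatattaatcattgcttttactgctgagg
The Col1a2 window has 62.0% GC and holds a CCAAT box from -109 to -105 relative to the start site, 2 GC boxes at -205 and -188, and a Smad box at -175. In the Col3a1 window, with 35.2% GC, there were a TATAAA match at -117 and 2 Smad boxes, at -239 and, on the minus strand, at -64. The Col5a1 window (76.4% GC) held 2 GC boxes and 1 Smad box, and that of Col11a2 (57.6% GC) 2 GC boxes and 1 TATAAA match. Over all 32851 promoters of this length, 33.8% held CCAAT, 32.7% GGGCGG, 12.4% TATAAA and 42.2% CAGAC, with a median of 52.4% GC. These letters are common, and a match is a description of the window.

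The chains gave low signals in whole liver. The mean signal, 2 to the power of the mean log2 value, was 39.7 for Col3a1, 27.4 for Col1a1 and 23.1 for Col1a2, which passed a signal of 20 as 44.1% of genes did. It was 12.4 for Col5a1, 8.96 for Col11a2, 7.91 for Col2a1 and 6.24 for Col5a2. As a gauge of background, 990 olfactory receptor genes, which liver is not known to use, had a median log2 signal of 1.53 and a 95th percentile of 2.15. The means of all 7 chains lay above 99.0% or more of these genes, but those of Col5a2 (2.64) and Col2a1 (2.98) were near the median of all probe sets, 2.97. The highest olfactory receptor gene was at 4.34, above the means of Col5a1, Col11a2, Col2a1 and Col5a2. A signal depends on the probes, so chains are compared between livers and not with each other. The array medians ran from 2.94 to 3.06, and the array with the lowest median correlation with the others was that of Trans replicate 4 (0.975, against at most 0.986). The hepatocyte marker Alb, which encodes albumin, had a mean signal of 8097. Trans replicates 1 and 4 stood apart as the highest Trans livers in the type I and III chains. They were picked after seeing these values. The differences are therefore given with and without them for the chains. The same was done for many values of other genes and lists that moved by over 1.5 times. For the type I and III chains, leaving out the highest Trans livers lowers a difference by construction. Those values thus describe how much of it rests on these livers.

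Col1a1, Col3a1 and Col2a1 had the largest separations between the Trans and Saturated groups relative to their spread. Col1a1 was 1.78-fold higher in the mean of the Trans livers and Col3a1 1.55-fold higher, while Col2a1 was 1.18-fold higher at a mean signal of 7.91. None of the chains passed an adjusted p of 0.05 in limma over all 35556 probe sets, a threshold that 0.00844% of them passed. At an unadjusted p under 0.05, 3 of 7 chains were higher in Trans, against 3.79% of all probe sets. The diet groups overlapped for 7 of 7 chains, and 0.0675% of all probe sets did not overlap. All chains but Col5a2 are among the collagen genes that the study displayed from these livers, so their direction here is not independent evidence. In whole tissue, more collagen-making cells and more RNA per such cell cannot be told apart.

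In the 8 Trans livers, Col1a1 ran from 4.41 (replicate 7) to 6.48 (replicate 1) on the log2 scale, with a median of 5.26. In the Saturated livers it ran from 3.97 to 4.84, with a median of 4.46. The groups overlapped, although 6 of 8 Trans livers exceeded the highest Saturated liver, and only Trans replicates 3 and 7 fell inside the Saturated range. The log2 difference was 0.83 (standard error 0.25, 95% interval 0.31 to 1.36, limma adjusted p = 0.429), and a two-sided exact permutation test of this gene alone gave p = 0.00591. Without Trans replicates 1 and 4 the difference was 0.50 (limma adjusted p = 0.784).

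Col3a1 was likewise highest in Trans replicates 1 and 4 and lowest of its group in replicates 3 and 7. It ran from 4.85 to 6.76 with a median of 5.69 in Trans and from 4.71 to 5.34 with a median of 5.10 in Saturated. Again 6 of 8 Trans livers lay above every Saturated liver and replicates 3 and 7 did not. The log2 difference was 0.63 (standard error 0.21, 95% interval 0.19 to 1.07, limma adjusted p = 0.491), with an exact permutation p of 0.0207. It was 0.35 without Trans replicates 1 and 4 (limma adjusted p = 0.840).

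Col1a2, the partner of Col1a1 in type I collagen, had the widest spread among Trans livers. Its log2 signals ran from 3.58 to 6.08 around a median of 4.85 in Trans, and from 4.00 to 4.79 around 4.37 in Saturated. Trans livers thus held both the lowest (replicate 7) and the highest (replicate 1) Col1a2 signal of all 24. The standard deviation was 0.85 in Trans, 0.38 in Cis and 0.26 in Saturated. The log2 difference between Trans and Saturated was 0.46 (standard error 0.26, 95% interval -0.08 to 1.01, limma adjusted p = 0.741, exact permutation p = 0.171). It came to 0.09 without Trans replicates 1 and 4.

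The minor chains differed by less than 0.25 on the log2 scale. For Col5a1, which starts fibril assembly, the Trans livers ran from 3.55 to 3.85 and the Saturated livers from 3.39 to 3.69, with a difference of 0.11 (95% interval -0.02 to 0.25, limma adjusted p = 0.758). It was 0.06 without Trans replicates 1 and 4, and a second, dimmer probe set of Col5a1 gave 0.11 over all livers. Col5a2 was high in Trans replicates 1 (3.06) and 4 (3.13) and at most 2.69 in the other Trans livers, against 2.52 to 2.77 in Saturated. Its difference was 0.07 (95% interval -0.11 to 0.25, limma adjusted p = 0.922) and turned to -0.06 without these replicates. Both type V chains were highest of the Trans group in replicates 1 and 4, the livers where types I and III were also highest.

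The cartilage chains Col2a1 and Col11a2 had mean signals of 7.91 and 8.96. Col2a1 ran from 2.79 to 3.55 in Trans, highest in replicate 4, and from 2.64 to 3.08 in Saturated, with medians of 3.02 and 2.80. Its difference was 0.23 (95% interval 0.04 to 0.43, limma adjusted p = 0.605, exact permutation p = 0.0272), and 7 of 8 Trans livers exceeded the mean of the Saturated group. The difference was 0.17 without Trans replicate 4 and 0.15 without replicates 1 and 4. Col11a2 ran from 2.89 to 3.36 in Trans and from 2.87 to 3.36 in Saturated, with medians of 3.29 and 3.01. The Trans liver highest in type I and III, replicate 1, was the lowest of its group in Col11a2. The difference was 0.17 (95% interval -0.00372 to 0.34, limma adjusted p = 0.693, exact permutation p = 0.0490), and 0.21 without Trans replicates 1 and 4.

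**Figure D1:**
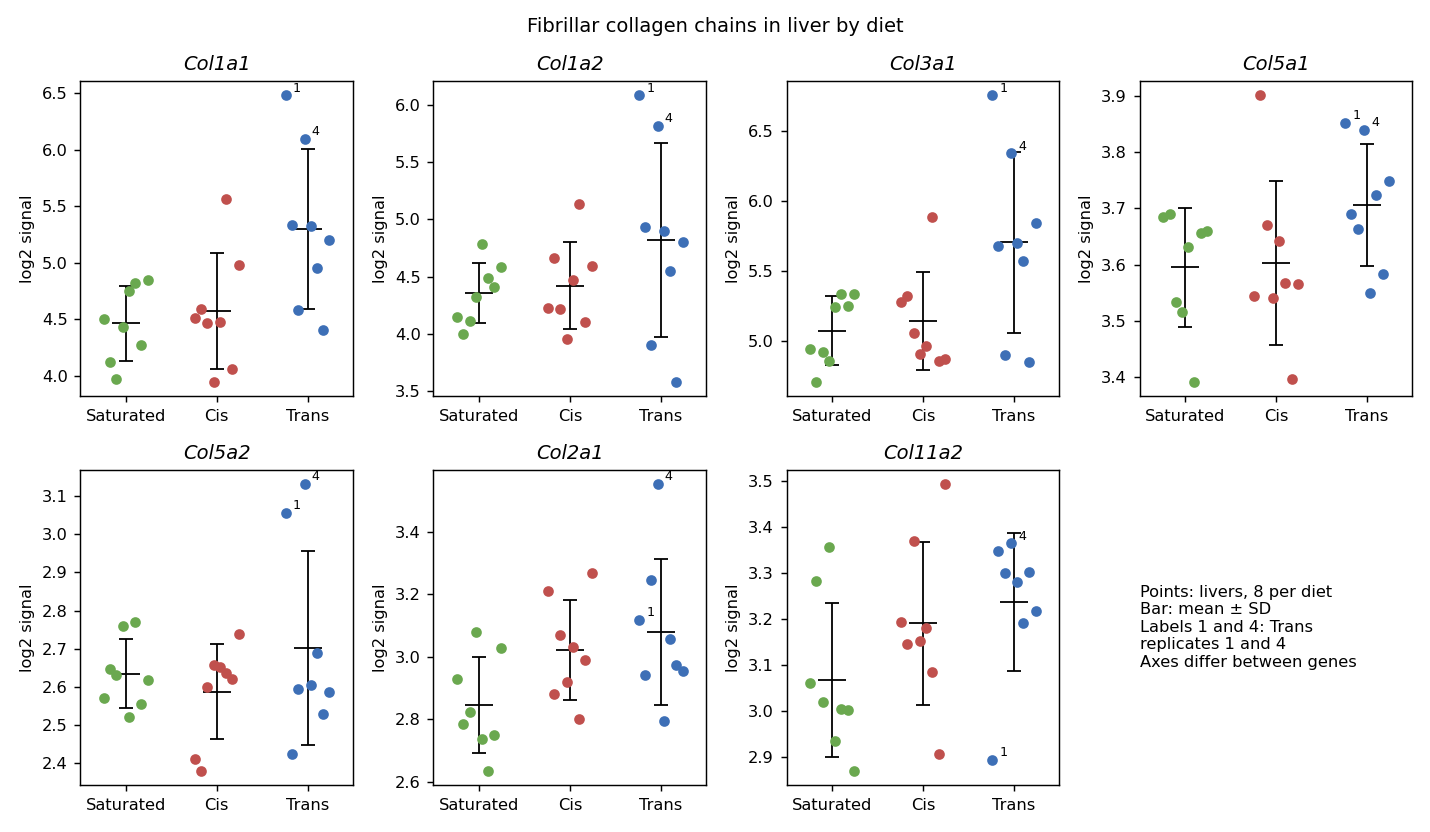
Log2 signal of each fibrillar collagen chain (vertical axis, own range for each gene) in the 8 livers of each diet, with the mean and standard deviation; Trans replicates 1 and 4 are labelled. Trans livers reached 6.48 for Col1a1 and 6.76 for Col3a1 while the highest Saturated livers were at 4.84 and 5.34, and the groups overlapped for every chain.

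The comparison of Trans with Cis asks whether the configuration of an unsaturated fat mattered, although the oils also differed in other fatty acids. Col1a1 was 1.65-fold and Col3a1 1.48-fold higher in the mean of the Trans livers. Of the 7 chains, 0 passed an adjusted p of 0.05, as did 0.00281% of probe sets, and 2 were higher in Trans at an unadjusted p under 0.05, against 3.05% of probe sets. The groups again overlapped for all 7 chains, while 0.0281% of probe sets did not overlap. This comparison uses the same Trans livers as the one with Saturated, so its values are not a second sample of them.

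In the Cis livers, Col1a1 ran from 3.95 to 5.57 with a median of 4.49, and the log2 difference from Trans was 0.72 (standard error 0.25, 95% interval 0.20 to 1.25, limma adjusted p = 0.723, exact permutation p = 0.0339). Col3a1 ran from 4.86 to 5.89 with a median of 5.01 in Cis, for a difference of 0.56 (standard error 0.21, 95% interval 0.12 to 1.00, limma adjusted p = 0.760, exact permutation p = 0.0477). Cis replicate 6 was the highest Cis liver for all 3 type I and III chains, and only Trans replicates 1 and 4 exceeded it in each. Without these Trans livers the differences were 0.39 for Col1a1 and 0.28 for Col3a1. Col1a2 differed by 0.40 (95% interval -0.15 to 0.95, limma adjusted p = 0.852), and by 0.02 without Trans replicates 1 and 4. For the other chains the difference was 0.11 for Col5a2, 0.10 for Col5a1, 0.06 for Col2a1 and 0.05 for Col11a2, each with a 95% interval that spans 0. With Trans replicates 1 and 4 left out these were -0.02, 0.06, -0.03 and 0.08, and Col2a1 was at -0.01 without replicate 4 alone. The second probe set of Col5a1 gave 0.22.

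In Cis against Saturated, the type I and III chains had smaller differences than in the comparisons with Trans, and Col2a1 and Col11a2 larger ones than in Trans against Cis. No chain reached an unadjusted p under 0.05 in limma over the 3 diets, which 3.30% of probe sets passed with a higher mean in Cis, and 0 of 7 passed the adjusted p, as did 0 of all probe sets. The groups overlapped for all 7 chains, and 0.0337% of probe sets did not overlap. The largest difference was that of Col2a1, which ran from 2.80 to 3.27 in Cis with a median of 3.01 and was 0.18 higher than in Saturated (95% interval -0.02 to 0.37, limma adjusted p = 0.792, exact permutation p = 0.0424). In a limma fit of these 2 diets alone its unadjusted p was 0.0455, and it was under 0.05 in 7 of 32 alternative fits. Col1a1 differed by 0.11 (95% interval -0.41 to 0.64), Col3a1 by 0.07 (-0.37 to 0.51) and Col1a2 by 0.06 (-0.48 to 0.61). These 3 differences turned to -0.03, -0.04 and -0.04 without Cis replicate 6. Col11a2 differed by 0.12, Col5a1 by 0.01 and Col5a2 by -0.05.

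**Figure D2:**
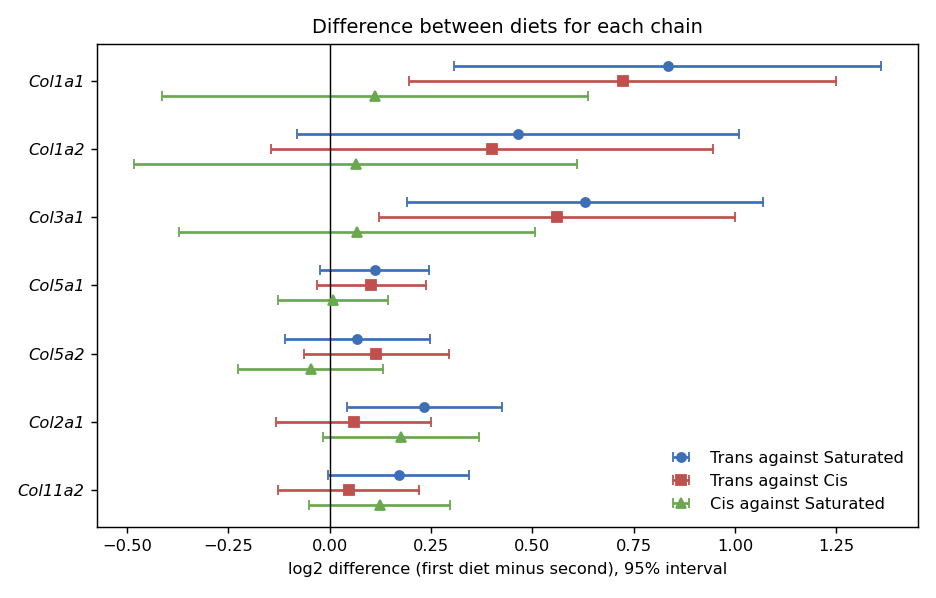
Difference in mean log2 signal between diets for each chain (horizontal axis, first diet minus second), with the limma 95% interval, from 8 livers per diet. For Col1a1 and Col3a1 the intervals of both comparisons with Trans lie above 0, and for Cis against Saturated every interval spans 0.

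Over the 7 chains, the mean was higher in Trans than in Saturated for 7, against 49.9% of all probe sets, with a median log2 difference of 0.23 against -0.00014 over all probe sets. Against Cis the mean was higher for 7 (48.9% of all probe sets), with a median of 0.11. In Cis against Saturated it was higher for 6 (51.3%), with a median of 0.07. If Trans replicates 1 and 4 are left out, 6 of 7 chains had a higher mean than in the Saturated group (median 0.15) and 5 of 7 a higher mean than in the Cis group (median 0.06). The chains are not independent of each other, as the next comparison shows.

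The type I and III chains varied together from liver to liver. Over the 24 livers, Pearson's r was 0.92 between Col1a1 and Col1a2 (Spearman's rho 0.88), 0.92 between Col1a1 and Col3a1 (rho 0.82) and 0.92 between Col1a2 and Col3a1 (rho 0.86). Each had a permutation p of 1e-05, the smallest that 100000 resamples can give, or 7e-05 after Benjamini-Hochberg adjustment over the 21 pairs of chains. Leaving out the 2 livers farthest from the median, Trans replicates 1 and 4, gave 0.82, 0.83 and 0.82. The relation was present without the diet differences too: with diet means removed r was 0.94, 0.89 and 0.93, and within the Saturated group alone 0.79, 0.73 and 0.84.

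Correlations of these chains with Col5a2 rested on a single pair of livers, and those with Col5a1 were weaker without it. Over 24 livers r was 0.57 between Col1a1 and Col5a2 (rho 0.16, adjusted permutation p = 0.0236), 0.59 between Col1a2 and Col5a2 and 0.50 between Col3a1 and Col5a2. Without Trans replicates 1 and 4 these came to -0.06, -0.08 and -0.24, so the relation rests on those samples. For Col5a1, r with Col1a1, Col1a2 and Col3a1 was 0.48, 0.51 and 0.52 (rho 0.45, 0.40 and 0.44), and 0.19, 0.21 and 0.24 without them. The cartilage chains Col2a1 and Col11a2 had an r of 0.46 with each other (rho 0.46, adjusted permutation p = 0.0495). It was 0.36 without Trans replicate 4 and Saturated replicate 6, the 2 livers farthest from the median of Col2a1. Without Trans replicates 1 and 4 it was 0.51 (adjusted permutation p = 0.0632). Between Col11a2 and the type I and III chains r ran from -0.16 to 0.04. In all, 10 of 21 pairs had an adjusted permutation p under 0.05, and 3 of 21 without Trans replicates 1 and 4, namely those among Col1a1, Col1a2 and Col3a1.

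**Figure D3:**
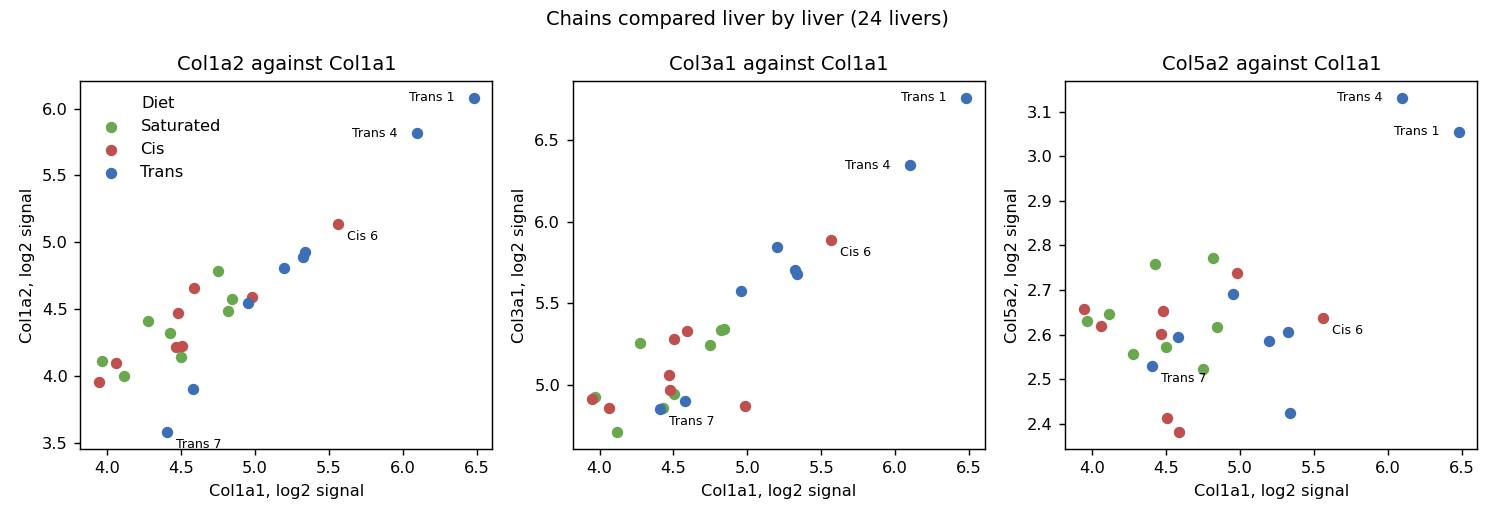
Log2 signals of Col1a2, Col3a1 and Col5a2 (vertical axes) against that of Col1a1 (horizontal axes) in the 24 livers, coloured by diet. Col1a2 and Col3a1 follow Col1a1 over its whole range (r 0.92 for both), whereas for Col5a2 only Trans replicates 1 and 4 depart from a flat cloud.

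Within a liver, the 2 type I chains did not keep a fixed offset across diets. The log2 signal of Col1a1 minus that of Col1a2 was 0.48 ± 0.18 in Trans (SD, n = 8), 0.15 ± 0.20 in Cis and 0.11 ± 0.20 in Saturated. The value itself depends on the probes, and only its difference between diets can be read. It ran from 0.28 to 0.82 in Trans and from -0.15 to 0.35 in Saturated, so that the groups overlapped, and 8 of 8 Trans values exceeded the means of both other groups. Between Trans and Saturated the means differed by 0.37, and by 0.42 without Trans replicates 1 and 4. This pair was chosen after its values were seen, and the differences are therefore given without a test.

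**Figure D4:**
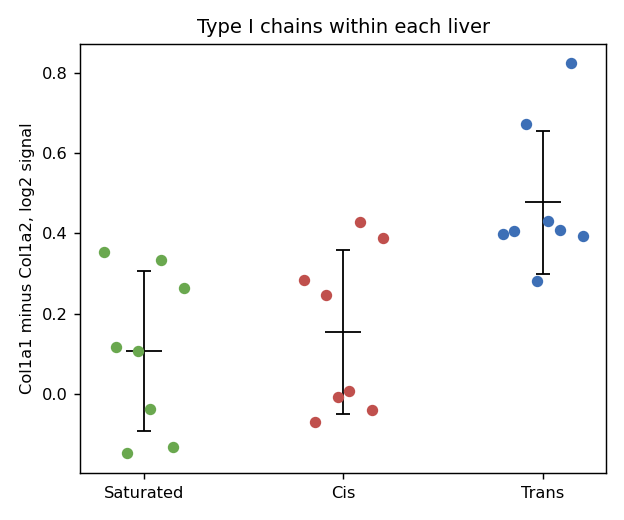
Log2 signal of Col1a1 minus that of Col1a2 in each liver (vertical axis) by diet, with the mean and standard deviation of 8 livers. The Trans livers lie between 0.28 and 0.82 and the Saturated livers between -0.15 and 0.35.

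Outside the fibrillar chains, the genes with the most similar pattern over the 24 livers were S100a11, Anxa2 and Sparc for Col1a1 (r 0.93, 0.92 and 0.91), among 8295 genes with a mean signal over 20. For Col1a2 they were Sparc, S100a11 and Nagk (r 0.84, 0.84 and 0.83). For Col3a1 they were S100a11, Sparc and Vim (r 0.91, 0.90 and 0.90). S100a11 and Anxa2 encode calcium-binding proteins, Sparc a collagen-binding matrix protein, Vim the filament protein vimentin and Nagk an amino sugar kinase. Without Trans replicates 1 and 4, r with Col1a1 was 0.85 for S100a11, 0.88 for Anxa2 and 0.81 for Sparc. With Col1a2 it was 0.64 for Sparc, 0.64 for S100a11 and 0.68 for Nagk, and with Col3a1 0.80 for S100a11, 0.81 for Sparc and 0.77 for Vim. These genes were picked as the highest of many, and their r has no test.

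The genes that make, trim, bind and break down fibrillar collagen were read from lists by role. In none of these lists did a gene pass an adjusted p of 0.05 in any comparison, so the counts are of means and of unadjusted p-values. Over all probe sets, 49.9% had a higher mean in Trans than in Saturated and 48.9% than in Cis, with 3.79% and 3.05% higher at an unadjusted p under 0.05. The other fibrillar chains, Col5a3, Col11a1, Col24a1 and Col27a1, had a higher mean in Trans than in Saturated for 3 of 4, with a median log2 difference of 0.02. Col11a1, a partner of Col11a2 in type XI collagen, differed by 0.07 at a mean signal of 4.47, Col24a1 by 0.03 and Col27a1 by -0.05. Against Cis, Col24a1 differed by -0.10 and Col27a1 by -0.14. None of the 4 reached an unadjusted p under 0.05. Without Trans replicates 1 and 4, 4 of 4 had a higher mean than in Saturated, Col27a1 included, with a median of 0.04.

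Of 16 measured genes of chain folding and modification, 9 were higher in Trans than in Saturated and 7 lower, with 1 in each direction at an unadjusted p under 0.05 and a median of 0.04. Plod1, which hydroxylates collagen lysines, ran from 7.04 to 7.54 in Trans and from 6.88 to 7.11 in Saturated, with 7 of 8 Trans livers above every Saturated liver. Its log2 difference was 0.24 (standard error 0.08, limma adjusted p = 0.469). Plod1 differed by 0.08 between Trans and Cis, and the Cis mean was 0.16 above that of Saturated. P4ha1, a subunit of the prolyl hydroxylase that stabilizes the helix, was lower in the mean, with a difference of -0.25 (standard error 0.11, limma adjusted p = 0.661) and 0 of 8 Trans livers exceeding the mean of the Saturated group. Serpinh1, the collagen chaperone Hsp47, differed by 0.22 from Saturated and by 0.26 from Cis (limma adjusted p = 0.714 and 0.802). P3h2, a prolyl 3-hydroxylase, differed by 0.12 and 0.22. Leaving out Trans replicates 1 and 4 gave 0.11 and 0.14 for Serpinh1, 0.02 and 0.11 for P3h2 and 0.17 from Saturated for Plod1. P3h2 differed from Saturated by 0.06 without replicate 1 alone. Over the list, 8 of 16 genes were then higher than in Saturated and the median was -0.01. Neither Ppib nor Fkbp10 of this list was analysed here.

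Of 7 measured genes of propeptide removal, 2 had a higher mean in Trans than in the Saturated group (median -0.06) and 4 than in the Cis group (median 0.0049). Leaving out Trans replicates 1 and 4 made these 1 and 3 of 7, with medians of -0.07 and -0.05. Bmp1, the procollagen C-proteinase, ran from 7.30 to 7.95 in Trans and from 7.59 to 8.09 in Saturated. It differed by -0.22 from Saturated and by -0.22 from Cis (standard error 0.09 in both, limma adjusted p = 0.623 and 0.784). Its relative Tll1 differed by 0.08 and 0.06 at a mean signal of 3.07, within the range of the olfactory receptor genes. In the crosslinking list 3 of 4 were higher than in Saturated, with a median of 0.15, and 4 of 4 than in Cis, with a median of 0.20. Without Trans replicates 1 and 4, 3 of 4 were higher in both comparisons, with medians of 0.11 and 0.06. Loxl1, a lysyl oxidase relative, ran from 2.85 to 4.01 in Trans and from 2.71 to 3.54 in Saturated, highest in Trans replicate 1. Loxl1 differed by 0.32 from Saturated (standard error 0.15, limma adjusted p = 0.677) and Loxl2 by 0.24 (limma adjusted p = 0.745). From Cis they differed by 0.24 and 0.17. Their mean signals were 9.27 and 12.2. Leaving out Trans replicates 1 and 4 gave differences from Saturated of 0.16 for Loxl1, 0.12 for Loxl2 and 0.04 for Tll1, whose difference from Cis came to 0.02. Loxl2 was at 0.16 from Saturated without replicate 1 alone.

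Proteins that bind fibrils had a higher mean in Trans than in Saturated for 7 of 9 genes and than in Cis for 8 of 9, with medians of 0.13 in both. Sparc differed by 0.33 from Saturated (standard error 0.13, limma adjusted p = 0.561) and by 0.26 from Cis. Lum, the small proteoglycan lumican, ran from 4.00 to 5.49 in Trans and from 3.72 to 4.53 in Cis and differed by 0.53 (standard error 0.16, limma adjusted p = 0.635), again highest in Trans replicate 1. Bgn, the proteoglycan biglycan, differed by 0.18 from Saturated and by 0.08 from Cis. With Trans replicates 1 and 4 left out, 5 of 9 genes were higher than in Saturated and 6 of 9 than in Cis, with medians of 0.04 and 0.07. Sparc then differed by 0.17 and 0.09 and Bgn by 0.08 and -0.01, and Lum by 0.39 from Cis.

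Collagen receptors were split, with 4 of 8 higher in Trans than in Saturated, and Ddr2 stood at the top of the list in both comparisons. Ddr2 is a tyrosine kinase that fibrillar collagen activates. It ran from 4.22 to 4.63 in Trans, from 4.07 to 4.40 in Saturated and from 4.00 to 4.36 in Cis, and all 8 Trans livers exceeded the mean of the Saturated group. The log2 difference was 0.25 from Saturated (standard error 0.07, limma adjusted p = 0.336) and 0.20 from Cis (limma adjusted p = 0.705). The integrin chain Itga11, at a mean signal of 4.56, differed by 0.18 from Saturated and by -0.0080 from Cis. The integrin chain Itga1 differed by -0.02 from Saturated and by 0.10 from Cis, with 5 of 8 Trans livers above every Cis liver. Among collagenases and their inhibitors 6 of 8 were higher in Trans, with a median of 0.12 and 0 at an unadjusted p under 0.05 against Saturated. Timp2, a metalloproteinase inhibitor, differed by 0.26 from Saturated and by 0.39 from Cis (standard error 0.15, limma adjusted p = 0.763), and Timp3 by 0.19 and 0.21. The collagenase Mmp13, at a mean signal of 4.70, differed by 0.26 and 0.10. Single livers moved these values. Mmp13 differed by 0.14 from Saturated and by -0.02 from Cis without Trans replicate 1, and Timp2 by 0.16 from Saturated without Trans replicate 4. Without both, Timp2 differed by 0.06 and 0.19, Timp3 by 0.12 and 0.15 and Mmp13 by 0.12 and -0.04. In this list 4 of 8 genes were then higher than in Saturated and 3 of 8 than in Cis, with medians of 0.0023 and -0.03. Ddr2 differed by 0.24 and 0.19 without these livers, and Itga1 by 0.07 from Saturated, or 0.06 without replicate 4 alone. Of the receptors, 5 of 8 were higher than in Saturated without both livers. Against Cis, 6 of 8 receptors were higher over all livers, 1 at an unadjusted p under 0.05 in limma, with a median of 0.06. Without both livers 5 of 8 were higher than in Cis, 2 at that p, with a median of 0.02.

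**Figure D5:**
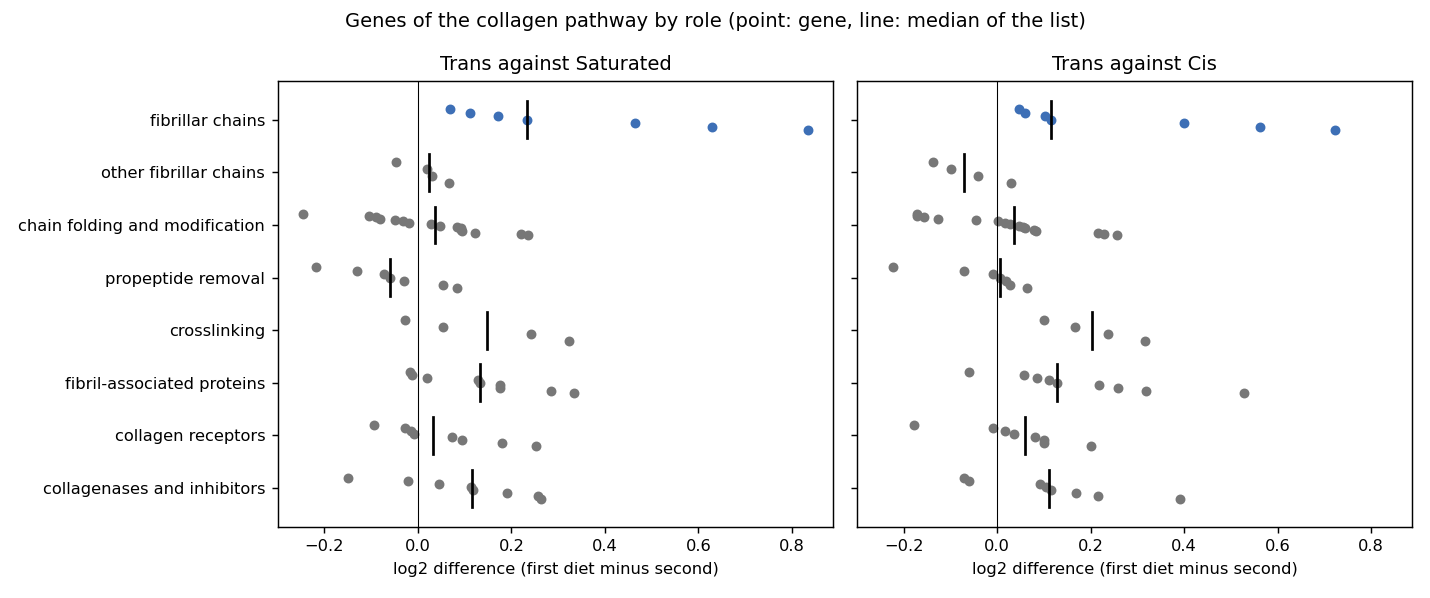
Log2 difference of each measured gene (points) by role list, Trans against Saturated on the left and Trans against Cis on the right, with the median of each list as a black bar. The highest fibrillar chain (blue), Col1a1, is at 0.83 and 0.72, past every gene of the other lists, whose largest value is 0.53 (Lum against Cis).

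Markers of cells that make collagen also had higher means in Trans. Of 8 markers of activated stellate cells and myofibroblasts, 8 had a higher mean in Trans than in Saturated, 4 of them at an unadjusted p under 0.05 in limma, with a median of 0.39, beside 49.9% and 3.79% of all probe sets. Against Cis, 8 of 8 were higher, 5 at an unadjusted p under 0.05, with a median of 0.29. Their summed signal ran from 241 to 527 in Trans (highest in replicate 1), from 199 to 304 in Cis (highest in replicate 6) and from 218 to 279 in Saturated. Acta2, the smooth muscle actin of myofibroblasts and vessel walls, differed by 0.96 from Saturated (standard error 0.36, limma adjusted p = 0.562), and by 0.40 without Trans replicates 1 and 4. All 7 smooth muscle markers, 3 of them shared with the list above, were higher than in Saturated too, with a median of 0.39. They were also higher than in Cis for 7 of 7, with a median of 0.30. Only 2 of the 7 had a mean signal over 20. Their summed signal reached 246 in Trans replicate 4, against at most 103 in Saturated and 123 in Cis. Portal fibroblast markers, none with a mean signal over 20, were higher for 6 of 7, with a median of 0.20. Their summed signal was 45.0 to 73.3 in Trans, 43.3 to 53.8 in Cis and 43.8 to 55.5 in Saturated. With Trans replicates 1 and 4 left out, the mean was higher than in Saturated for 6 of 8 activated stellate, 6 of 7 smooth muscle and 3 of 7 portal fibroblast markers, with medians of 0.14, 0.13 and -0.02, and 0 of them reached an unadjusted p under 0.05 in limma. Against Cis 6 of 8 activated stellate and 4 of 7 smooth muscle markers were then higher, with medians of 0.15 and 0.11 and 0 at that p. The part of these cells in the collagen differences was not tested.

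Markers of resting stellate cells were mostly lower, with 3 of 9 higher in Trans than in Saturated, a median of -0.14 and a summed signal of 654 to 811 in Trans, 709 to 886 in Cis and 724 to 899 in Saturated. The 9 cartilage markers, which bear on Col2a1 and Col11a2, had a median difference of -0.00428, with 4 higher and a summed signal of 49.9 to 85.2 in Trans, 51.1 to 85.0 in Cis and 49.2 to 87.5 in Saturated. Sox9, also on the cholangiocyte list, had a mean signal of 32.8 and was the largest part of this sum. The other cartilage markers had mean signals from 3.13 (Acan) to 5.47 (Cnmd), within the range of the olfactory receptor genes. Hepatocyte markers were higher for 1 of 9, with a median of -0.04, and endothelial markers for 7 of 8, with a median of 0.10. Macrophage markers were higher for 5 of 9 and cholangiocyte markers for 2 of 5, with medians of 0.05 and -0.02. Against Cis, endothelial markers were higher for 8 of 8, 3 at an unadjusted p under 0.05 in limma, with a median of 0.11. Over all probe sets these shares were 48.9% and 3.05%. Macrophage markers were higher than in Cis for 6 of 9, hepatocyte markers for 6 of 9 and cholangiocyte markers for 3 of 5. With Trans replicates 1 and 4 left out, 7 of 8 endothelial markers were higher than in Cis, 1 at that p, with a median of 0.09. Against Saturated the medians were then -0.08 for resting stellate, -0.01 for cartilage, 0.05 for endothelial, -0.09 for macrophage and -0.15 for cholangiocyte markers. None of these markers passed an adjusted p of 0.05.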

How the data were processed

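Total RNA from 24 livers was hybridized to 1 array each. The authors processed the scans with RMA, named in the submitters' processing notes with no version, which corrects background, quantile normalizes and summarises probes, and they deposited log2 values for 35556 probe sets (0.309 to 13.5). The genome build of the array design is not given in the sources used here. Genes were named from the platform annotation: 21218 probe sets list 1 gene, 1881 several and 12457 none, and no low-signal filter was applied. A linear model of the 3 diets was fitted to all livers in R 4.3.3 with limma 3.58.1 (lmFit and eBayes, 21 residual degrees of freedom), two-sided, with Benjamini-Hochberg adjustment over all probe sets and a call at 0.05. Single genes were also tested by exact permutation (12870 arrangements), and correlations by 100000 permutations in scipy 1.17.1. The procedure was tested on simulated data. Groups follow the labelled diet. Named pathway genes are those of smallest unadjusted p per list in each comparison with Trans, up to 2, and for chains with a signal over 20 the 3 genes of highest r. The chains and lists were chosen with earlier results of these data known. Precision is limited by the number of arrays. The replicate numbers are not stated to pair mice, so the main model had no block. Same-numbered livers had a median correlation of 0.04, against -0.0048 for other pairs, which cannot exclude a pairing. The closing section gives the effect of other models, weights, filters, normalizations and left-out livers.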

Additional observations from a re-analysis of the deposited data

Results flagged for a closer look

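In 93 groups of 8 livers, covering the chains and named genes by diet, a liver was marked where its gap to the nearest liver was more than 0.526 of the range of its group. Of these groups 10 had such a liver, and chance marks about 1 in 20, or 4.65 groups. The groups share livers, and some genes were picked for a high r with the chains. The 2 counts therefore cannot be read as a test. Cis replicate 6 was high for Col3a1 (log2 signal 5.89, next 5.33, gap 0.545 of the range), for the collagen chaperone Serpinh1 (3.57, next 3.16, gap 0.588) and for the filament protein Vim (7.33, next 6.76, gap 0.639). Trans replicate 1 was low for Col11a2 (2.89, next 3.19, gap 0.632) and high for the collagenase Mmp13 (3.19, next 2.44, gap 0.569). Trans replicate 6 was high for Col24a1 (2.59, next 2.38, gap 0.647). Itga1, a collagen-binding integrin chain, was low in Trans replicate 4 (6.34, next 6.83, gap 0.703) and high in Saturated replicate 8 (7.13, next 6.89, gap 0.600). Tll1, a procollagen proteinase at the level of the olfactory receptor genes, was high in Cis replicate 8 (1.82, next 1.62, gap 0.589) and in Saturated replicate 1 (1.81, next 1.63, gap 0.536).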

How the results depend on the processing

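Under every limma alternative run, 0 of the 7 chains passed an adjusted p of 0.05, with 2 to 4 at an unadjusted p under 0.05 for Trans against Saturated. With a replicate block, a pairing that is not stated (correlation of same-numbered livers -0.11 to 0.24, median 0.04), the limma adjusted p of Col1a1 was 0.406 against Saturated. No call changed. The methods' Tukey's post hoc test gave 3 chains against Saturated and 1 against Cis before adjustment over probe sets, and 0 after it. With only signals over 20, 3 chains remained and the median differences were 0.63 and 0.56. Col5a1 in Cis against Saturated turned to -0.049 as the mean of its probe sets. Leaving out each liver in turn gave -0.035 to 0.038 for it, and for Cis against Saturated -0.030 to 0.20 for Col1a1, -0.038 to 0.13 for Col1a2 and -0.038 to 0.11 for Col3a1. Col2a1 in Trans against Cis ran from -0.0088 to 0.10. Without Trans replicates 1 and 4, left out after seeing the data, Col5a2 turned to -0.063 against Saturated and -0.016 against Cis, and Col2a1 to -0.026 against Cis. Pairs of chains with an adjusted permutation p under 0.05 went from 10 to 3 with Spearman's rho, to 3 with diet means removed and to 3 without these livers, and stayed at 10 without Saturated replicate 2. Correlations that turned negative were, with rho, Col3a1 with Col2a1 (-0.0078) and Col5a1 with Col5a2 (-0.15). With diet means removed they were those of Col11a2 with Col1a1 (-0.21), Col5a1 (-0.026) and Col5a2 (-0.040). Without Trans replicates 1 and 4 they were those of Col5a2 with Col1a1 (-0.058), Col1a2 (-0.079), Col3a1 (-0.24), Col5a1 (-0.51) and Col2a1 (-0.0075), and of Col2a1 with Col1a1 (-0.027), Col1a2 (-0.26) and Col3a1 (-0.28). The cause of these shifts was not tested.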
